A study of Mus musculus with 6 samples.

Results

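The genes described are those of the mitochondrial respiratory chain and ATP synthase, the machinery of oxidative phosphorylation. They were taken by platform symbol: every gene whose symbol starts with Nduf, Uqcr, Atp5 or Cox4 to Cox8, together with Sdha, Sdhb, Sdhc, Sdhd and Cyc1. The rule found 80 of the 15967 genes on the array, measured by 95 of its 24611 probes. Transcript levels came from 6 mouse Illumina bead arrays, 1 per sample. All samples were C57BL/6 bone marrow cells depleted of lineage-marked cells and kept overnight with stem cell factor and thrombopoietin, then sorted for c-kit and CD41 as megakaryocyte progenitors and cultured for 3 days with thrombopoietin alone. In 3 samples the genotype was SRF wild-type (SRF+/+), and in the other 3 it was SRF knockout (SRF-/-), made with Cre recombinase driven by Pf4, whose promoter is active in megakaryocytes. The labels do not say whether the wild-type mice carried Cre, whether animals were pooled, or which animal gave which array, so p-values measure only the spread between these samples.

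Oxidative phosphorylation passes electrons from NADH and succinate to oxygen through complexes I to IV of the inner mitochondrial membrane, and the protons pumped on the way drive ATP synthase, complex V. Complexes I, III, IV and V mix subunits encoded in the nucleus with a few encoded in mitochondrial DNA, while complex II is encoded in the nucleus alone. Megakaryocytes and the platelets they release carry mitochondria and use both glycolysis and respiration. Serum response factor, the protein that Srf encodes, is a transcription factor best known for genes of the cytoskeleton and immediate early genes.

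The labels held for the deleted gene. Srf lay at log2 12.31, 11.89 and 11.98 in the wild-type and at 7.35, 7.56 and 7.20 in the knockout, 25.8-fold lower (limma adjusted p = 5.45e-05). All 11 megakaryocyte markers on the array were detected on every array, with a mean of log2 12.35 to 12.61 in the wild-type and 12.59 to 12.93 in the knockout. Markers of other blood cells set arrays of the same group apart. The mean of 12 granulocyte markers lay between 9.78 and 10.06 on wild-type replicates 2 and 3 and knockout replicate 1, and between 6.95 and 7.55 on the other 3 arrays. The mean of 10 mast cell and basophil markers reached 8.01 and 8.16 on wild-type replicates 2 and 3, with 6 of the markers detected, and lay between 5.46 and 5.90 on the other 4 arrays, with 1 to 3 detected. The mean of 8 erythroid markers reached 6.85 and 6.89 on the same pair of wild-type arrays, and 5.88 to 5.99 elsewhere. The part of these markers in the results below was not tested, apart from 1 alternative that put the mast cell and basophil mean in the model. In a bulk sample fewer cells of a type and less RNA per cell cannot be told apart.

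Transcripts of all 5 complexes were detected in both genotypes, and no member passed the test between them. Of the 80 genes, 68 were detected on all 6 arrays, where detected means a detection p under 0.05 against the negative control beads. A further pair, Ndufab1 and Cox6b2, were detected on 3 wild-type and 2 knockout arrays and so entered the test through the wild-type group alone. The remaining 10 did not pass the detection filter, which asks for detection on all 3 arrays of a group. Cox4i2 was detected on 1 wild-type array, and the other 9 were detected on none.

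Among the 70 tested genes, limma called 0 higher and 0 lower at an adjusted p under 0.05, where 0.16% of all 9403 tested probes and 0.16% of 6869 genes were called. At an unadjusted p under 0.05, 1 member was higher, against 6.59% of all genes, and 1 was lower, against 6.26%. These were Uqcrc2 and Cox6b2. The smallest adjusted p in the pathway was 0.32.

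The differences were small as well as uncalled, and most had narrow intervals. For 65 of the 70 genes the 95% interval of the difference lay within 1 on the log2 scale, which is a doubling, against 85% of all genes. For 51 of them (72.9%) it lay within 1.5-fold in either direction, against 44.5% of all genes. The 5 genes whose intervals reached past a doubling were Ndufb10, Ndufb11, Ndufab1, Cox6b2 and Cox7a1. Arrays of 1 group differed by a median SD of 0.15 at the members and 0.22 over all tested genes. Narrow intervals were not particular to the members. Of 44 tested cytosolic ribosomal protein genes, 32 had intervals within 1.5-fold (median SD 0.11). Of 35 tested proteasome subunit genes, 21 did (median SD 0.16).

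**Figure D1:**
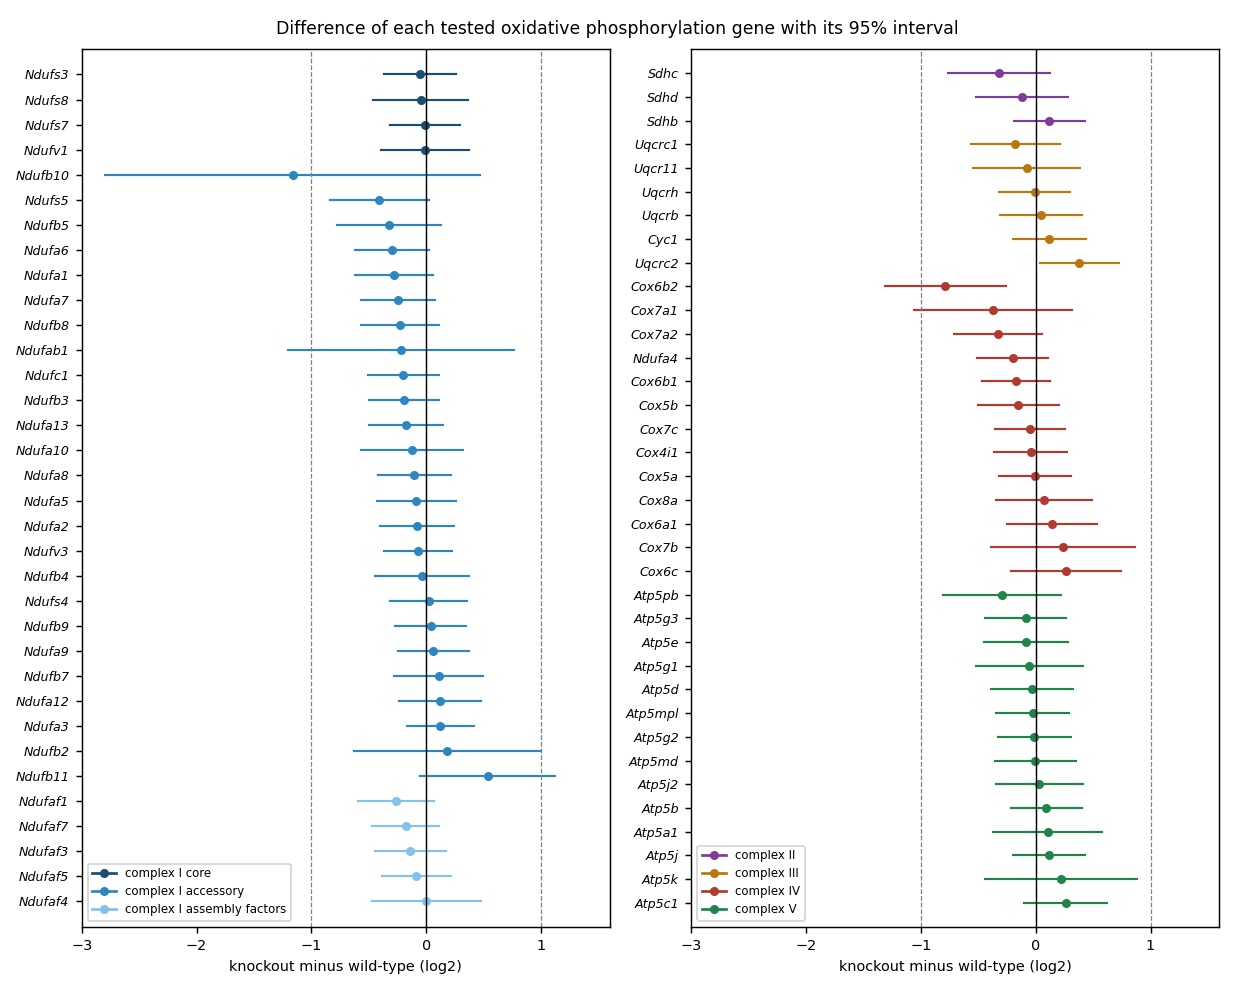
Knockout minus wild-type (log2) for each of the 70 tested genes, in order of difference within its complex. Points are limma's estimates, bars their 95% intervals before any adjustment, and dashed lines mark a doubling in either direction. All intervals but those of Ndufb10, Ndufb11, Ndufab1, Cox6b2 and Cox7a1 stay between the dashed lines, and those of Uqcrc2 and Cox6b2 alone do not cross 0.

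As a list the members stood slightly below the rest. The median difference was -0.05 on the log2 scale, beside -0.01 over all tested genes, and 47 of 70 (67.1%) were lower in the knockout by mean, beside 51% of all genes. The 3 arrays of a group all lay below the 3 of the other for 16 members. The knockout was the lower group in 13 of these (18.6%, against 9.46% of all genes) and the higher group in 3 (4.29%, against 8.69%). The surplus on the lower side was absent without wild-type replicate 1, where 17 members were apart and lower beside 23.7% of all genes, and the lower count was 21 (15.4% of all genes) without knockout replicate 1. With wild-type replicates 2 and 3 both left out it was 31, beside 24.6%. The higher count was 14 without wild-type replicate 1 (23.8% of all genes) and 8 without knockout replicate 3 (14.5%). With all arrays kept, 7 of 44 tested cytosolic ribosomal protein genes were apart and lower, and 3 apart and higher. By mean 26 of these 44 were lower. Of 35 tested proteasome subunit genes, 1 was apart and lower and 5 apart and higher, with 12 lower by mean.

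**Figure D2:**
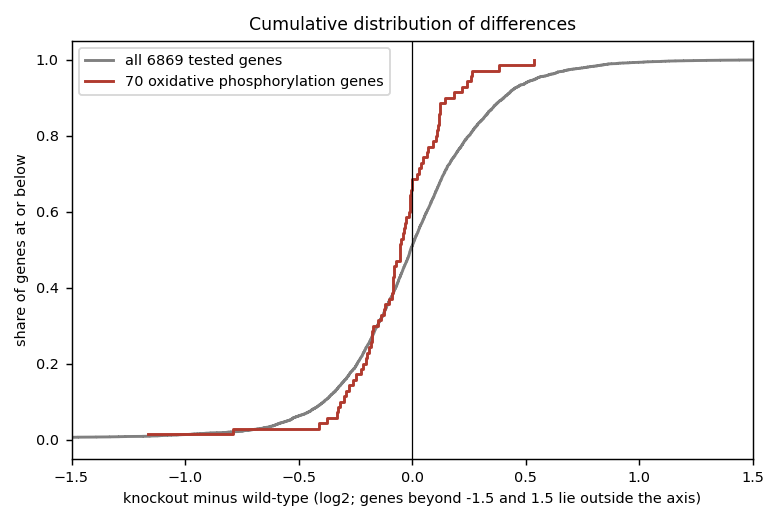
Cumulative share of genes at or below each difference (knockout minus wild-type, log2) for the 70 tested oxidative phosphorylation genes (red) and all 6869 tested genes (grey). The red line climbs faster around 0, with 67.1% of members below 0 against 51% of all genes, and has few genes beyond 0.5 on either side.

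Promoter sequence is a feature of the members that the choice by symbol did not use. RefSeq promoter windows on GRCm38.p6, from 250 bases before to 50 after each gene's start, were found for 64 of the 80 genes (69 windows). Nuclear respiratory factor 1 (NRF1) is a transcription factor known for activating genes of the respiratory chain. The palindromic centre of its site, CGCATGCG, which reads the same on both strands, was in 9 of the 69 windows (13%) and in 1.87% of all 32851 windows. Those 9 sites are shown because, of the motifs searched that were more common in member promoters than in all promoters, this one had the highest ratio of the shares. Each is given 5′ to 3′ on the strand of the gene with up to 20 bases on either side, and the capitals mark the NRF1 motif.
Atp5g2 (chr15:102671061-102671108, minus strand): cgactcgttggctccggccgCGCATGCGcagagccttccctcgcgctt
Atp5j (chr16:84835096-84835143, minus strand): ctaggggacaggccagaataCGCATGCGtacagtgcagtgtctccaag
Atp5k (chr5:108434421-108434468, minus strand): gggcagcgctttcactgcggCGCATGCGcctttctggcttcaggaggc
Cox6a1 (chr5:115349092-115349139, minus strand): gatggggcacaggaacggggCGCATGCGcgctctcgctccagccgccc
Ndufa8 (chr2:36049320-36049367, minus strand): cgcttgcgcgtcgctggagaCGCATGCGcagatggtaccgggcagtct
Ndufaf4 (chr4:24897951-24897998, plus strand): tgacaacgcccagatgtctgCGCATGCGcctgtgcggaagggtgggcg
Ndufaf5 (chr2:140170643-140170690, plus strand): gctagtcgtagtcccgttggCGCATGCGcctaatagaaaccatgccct
Uqcr11 (chr10:80406799-80406846, minus strand): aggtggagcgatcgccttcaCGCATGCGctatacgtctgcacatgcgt
Uqcrc1 (chr9:108936659-108936697, plus strand): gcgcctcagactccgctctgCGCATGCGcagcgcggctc

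The motif began 5 bases before the start in Uqcr11 and 9 in Ndufa8, 41 to 49 in Atp5g2 and Atp5k, and 112 to 161 in Ndufaf4, Atp5j and Cox6a1. In Ndufaf5 and Uqcrc1 it lay 17 and 31 bases after the start. The motif CCGGAAG, bound by GABPA and other ETS factors and searched on both strands like the rest, was in 15 member windows (21.7%) and in 8.86% of all windows. AAGATGG, part of the YY1 motif, was in 10 (14.5%) and in 6.34%. Windows with both the NRF1 and the GABPA motif were those of Atp5j, Atp5k, Cox6a1 and Uqcr11. The whole window of Cox6a1 (GRCm38.p6, chr5:115348909-115349208, minus strand) is shown as an example, each motif in capitals and that of GABPA on the opposite strand.
Cox6a1: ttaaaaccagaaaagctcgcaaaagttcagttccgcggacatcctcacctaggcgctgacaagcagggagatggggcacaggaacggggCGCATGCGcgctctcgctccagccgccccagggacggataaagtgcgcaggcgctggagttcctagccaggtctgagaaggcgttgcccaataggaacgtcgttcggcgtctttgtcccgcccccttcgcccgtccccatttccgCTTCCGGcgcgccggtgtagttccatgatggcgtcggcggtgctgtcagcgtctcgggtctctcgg

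The CArG box, the site that serum response factor binds, was in none of the 69 member windows and in 1.63% of all windows. CCAAT was about as common in members (40.6%) as in all windows (37.4%), and the E-box CACGTG was in 8.7% and 7.15%. Median GC content was 58.7% in member windows and 52.7% in all. The 9 genes with the NRF1 motif had a median difference of -0.01 and the 15 with CCGGAAG one of -0.01, beside -0.01 over all tested genes. These are matches of letters in short windows, and they show neither binding nor its absence.

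Complex I takes electrons from NADH. Of its 5 core subunits on the array, 4 were tested, and these differed least of any group, from -0.05 to -0.01. Ndufv1, which binds NADH, lay at log2 12.67, 12.75 and 12.96 in the wild-type and 12.99, 12.80 and 12.55 in the knockout. The arrays of the groups overlapped fully, and the difference was -0.01 (95% interval -0.39 to 0.37). Ndufs7 and Ndufs8, which hold iron-sulfur clusters on the path to ubiquinone, stood at -0.01 (interval -0.32 to 0.30) and -0.05 (-0.47 to 0.37). Ndufs3, a core subunit of the same arm, stood at -0.05 by its brighter probe and at -0.50 by a dimmer one, on which knockout replicate 1 was low (7.97 against 9.06 to 9.39 on the other arrays, unadjusted p = 0.162). Ndufs1, another iron-sulfur subunit, was not well above background on any array.

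All 25 accessory subunits of complex I on the array were tested, and 17 (68%, beside 51% of all genes) were lower in the knockout by mean. Their median difference was -0.10. In 7 (28%, beside 9.46% of all genes) the knockout arrays all lay below the wild-type ones. In 1, Ndufa3, they lay above (4%, beside 8.69% of all genes). None passed the test. The 7 were Ndufs5, Ndufa6, Ndufa1, Ndufa7, Ndufb8, Ndufc1 and Ndufb3, with differences from -0.41 to -0.19 and adjusted p from 0.377 to 0.506.

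Ndufs5, a small subunit on the intermembrane side of the membrane arm, had the smallest p of the accessory set. It lay at log2 12.01, 12.17 and 12.65 in the wild-type and 11.87, 11.83 and 11.90 in the knockout. The knockout arrays agree within 0.1 while wild-type replicate 3 stood above the other wild-type arrays, and the difference was -0.41 (SE 0.19, adjusted p = 0.377). Ndufa6, which anchors the mitochondrial acyl carrier protein to the complex, lay at 11.13, 10.90 and 11.04 against 10.85, 10.70 and 10.63. The groups did not overlap, and the difference was -0.30 (SE 0.14, adjusted p = 0.385).

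Ndufb11, an X-linked subunit of the membrane arm, differed in the other direction. It lay at log2 8.11, 7.16 and 7.25 in the wild-type and 8.09, 8.09 and 7.93 in the knockout. Wild-type replicate 1 was level with the knockout arrays, and the low arrays were wild-type replicates 2 and 3, those rich in mast cell and basophil markers. Knockout replicate 1, rich in granulocyte markers like that pair, lay at 8.09. The difference was 0.54 (SE 0.25, adjusted p = 0.387). Without wild-type replicate 1 it was 0.84 and passed (adjusted p = 0.0232), the sole member to pass with a single array left out, in a fit that called 639 of all tested probes. With wild-type replicates 2 and 3 left out it was -0.07, and with the mast cell and basophil marker mean in the model it was 0.046. Erythroid markers were also highest on that pair (6.85 and 6.89, against 5.88 to 5.99). The covariate therefore cannot tell the traits of those arrays apart, and the part of each was not tested.

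Ndufb10, another membrane arm subunit, is named because of its values rather than by the rule for named genes. It lay at log2 10.61, 7.81 and 7.72 in the wild-type and 7.58, 7.24 and 7.83 in the knockout, with wild-type replicate 1 far above the rest. Raw intensity was 1734 in wild-type replicate 1, with a standard error of 93.6 over 34 beads, and 304.4 to 471.5 on the other 5 arrays. The authors' processed value was likewise 10.63 there and 8.61 to 8.82 elsewhere. Of 6869 tested genes, Ndufb10 was the sole one for which wild-type replicate 1 stood at least 1 above every other array. Its difference was -1.16 (SE 0.70, adjusted p = 0.459), and -0.22 without wild-type replicate 1. Without wild-type replicates 2 and 3 it was -3.05, where wild-type replicate 1 is the sole wild-type array, assumed to vary like the knockout arrays. With the mast cell and basophil marker mean in the model it was -2.66 (adjusted p = 0.0274), in a fit that called 14 of all tested probes. That mean was 8.01 and 8.16 on wild-type replicates 2 and 3 and 5.46 to 5.90 elsewhere. The fit with it therefore also rests largely on wild-type replicate 1.

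**Figure D3:**
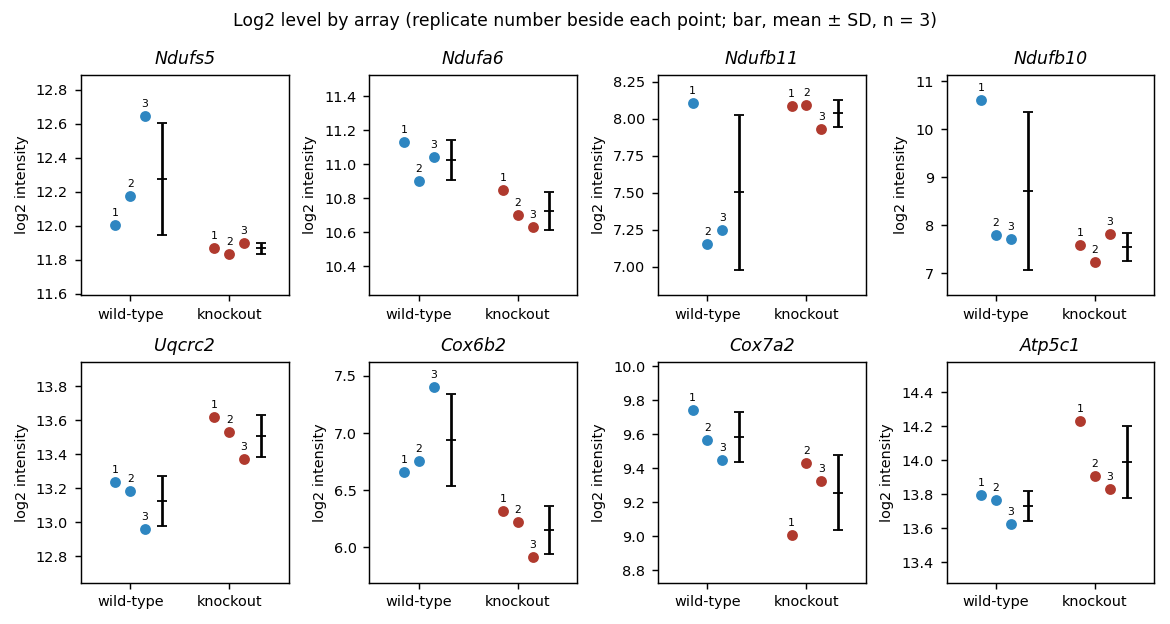
Log2 level of 8 members on each array, with the replicate number beside each point and the mean ± SD (n = 3) as a bar; each panel has its own axis. Ndufb10 shows the lone high value of wild-type replicate 1, Ndufb11 the low values of wild-type replicates 2 and 3, and the groups do not overlap at Ndufs5, Ndufa6, Uqcrc2, Cox6b2, Cox7a2 and Atp5c1.

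The other accessory subunits lay between -0.33 (Ndufb5) and 0.18 (Ndufb2). Those nearest to 0 included Ndufs4, which is needed for a stable NADH-oxidising arm, at 0.02, with 0.05 and 0.11 by its further probes, and Ndufb9 at 0.04. Ndufab1, the acyl carrier protein itself, was dim and varied most among replicates of these (SD 0.57 and 0.79, n = 3 each), and its interval of -1.20 to 0.77 reached past a doubling on the lower side.

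Assembly factors build complex I without being part of it. Of their 6 genes 5 were tested, 4 of them lower by mean (80%, beside 51% of all genes), with a median of -0.14. Ndufaf1, which acts in assembly of the membrane arm, lay at log2 10.77, 10.84 and 11.04 in the wild-type and 10.52, 10.69 and 10.66 in the knockout (-0.26, SE 0.14, adjusted p = 0.425). Ndufaf7, a methyltransferase that modifies a core subunit, lay at 8.30, 8.29 and 8.31 against 8.16, 8.06 and 8.14 (-0.18, adjusted p = 0.51). The groups did not overlap at either gene. Ndufaf3 stood at -0.14, Ndufaf5 at -0.09 and Ndufaf4 at 0.00. Ndufaf6 was not well above background on any array.

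Complex II is succinate dehydrogenase, shared with the tricarboxylic acid cycle. Sdhb, its iron-sulfur subunit, stood at 0.12 (interval -0.19 to 0.43). Of the membrane anchors, Sdhd stood at -0.12 (-0.52 to 0.28) and Sdhc at -0.32 (-0.76 to 0.13, adjusted p = 0.457). Sdhc lay at log2 11.60, 12.11 and 12.25 in the wild-type and 11.78, 11.59 and 11.64 in the knockout. Wild-type replicates 2 and 3 were again the arrays that stood apart, here on the high side, and the difference was 0.07 without them. The probe for Sdha, the flavoprotein subunit, was not well above background on any array. The same held for a second Sdhc probe, and a second Sdhb probe was detected on 1 knockout array.

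Complex III moves electrons from ubiquinol to cytochrome c. Uqcrc2, one of its large core proteins, had the smallest p of the complex and was the one member higher at an unadjusted p under 0.05. It lay at log2 13.24, 13.18 and 12.96 in the wild-type and 13.62, 13.53 and 13.37 in the knockout. Every knockout array was above every wild-type array, by 1.30-fold on average (0.38, SE 0.15, 95% interval 0.04 to 0.72), yet the adjusted p was 0.344. The difference was 0.27 to 0.45 under every alternative tried. Its partner core protein Uqcrc1 stood at -0.18 (interval -0.57 to 0.21). Cyc1, cytochrome c1, stood at 0.12 (interval -0.20 to 0.43), and the smaller subunits Uqcrb, Uqcrh and Uqcr11 at 0.05, -0.01 and -0.08. Uqcrfs1, the Rieske iron-sulfur protein, and Uqcrq had probes not well above background on any array.

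Complex IV, cytochrome c oxidase, hands the electrons to oxygen, and several of its subunits exist as tissue isoforms. The widely expressed form was detected on all 6 arrays for Cox4i1, Cox6a1, Cox6b1, Cox7a2 and Cox8a. Of the forms known from muscle or heart, Cox6a2 and Cox8b were not well above background on any array, whereas Cox7a1 was detected on all 6. Cox4i2, best known from lung, was detected on 1. Among forms known from testis, Cox7b2 and Cox8c were not well above background, and Cox6b2 was detected on 5 arrays. A probe near background does not show that its transcript is absent. Sdhc and Atp5j each had a probe detected on every array and a further probe detected on none.

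Cox6b2 had the smallest p of all members. It lay at log2 6.65, 6.76 and 7.40 in the wild-type and 6.32, 6.22 and 5.91 in the knockout. The groups did not overlap, and the level was 1.73-fold lower in the knockout (-0.79, SE 0.23, unadjusted p = 0.00878, adjusted p = 0.32). These are dim values on a probe that was tested through the wild-type alone. The difference was -0.19 in the authors' processed values and -0.31 without background correction. A second Cox6b2 probe was not well above background on any array.

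The widely expressed Cox6b1 stood at -0.17 by its brighter probe (adjusted p = 0.543). Its second probe lay at 13.70, 13.74 and 13.80 in the wild-type and 13.26, 13.47 and 13.31 in the knockout. The groups did not overlap there either, with a difference of -0.40 (unadjusted p = 0.0168, adjusted p = 0.326). Cox7a2 stood at -0.33 (9.74, 9.56 and 9.45 against 9.01, 9.43 and 9.33, adjusted p = 0.407), with the groups apart by 0.02 at their nearest. Ndufa4, named for complex I and now counted with complex IV, stood at -0.20 (14.13, 14.21 and 14.19 against 14.00, 13.84 and 14.08, adjusted p = 0.493). In these 4 genes, Cox6b1, Cox6b2, Cox7a2 and Ndufa4, the knockout arrays were all lower. They make 30.8% of the 13 tested, beside 9.46% of all genes. In no gene of the complex were the knockout arrays all higher, beside 8.69% of all genes.

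Other subunits of complex IV were close to 0. Cox4i1, the regulatory subunit that binds ATP, stood at -0.04 (interval -0.36 to 0.28), Cox5a at -0.01, Cox7c at -0.05, Cox8a at 0.07 and Cox6a1 at 0.14 and 0.05 by its 2 probes. Cox5b stood at -0.15, Cox7b at 0.24 and Cox6c at 0.26. Cox7a1 lay at log2 6.25, 7.26 and 7.21 in the wild-type and 6.32, 6.90 and 6.38 in the knockout. It was highest on wild-type replicates 2 and 3, and its difference of -0.37 (adjusted p = 0.567) was 0.28 without them and 0.13 with the mast cell and basophil marker mean in the model. The median of the 13 tested genes of the complex was -0.05.

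Complex V, ATP synthase, turns the proton gradient into ATP. All 14 of its genes on the array were tested, 8 lower (57.1%, beside 51% of all genes) and 6 higher by mean. Their median was -0.01 and their range -0.29 to 0.26. Every interval lay within a doubling. The catalytic head showed little difference: Atp5b, the beta subunit, lay at 15.16, 15.18 and 15.13 against 15.35, 15.28 and 15.12 (0.09, interval -0.22 to 0.40), and Atp5a1, the alpha subunit, stood at 0.10 (-0.37 to 0.58). Atp5c1, the gamma subunit that turns within the head, lay at 13.80, 13.77 and 13.63 against 14.23, 13.91 and 13.83. It was the one gene of the complex with the groups apart (0.26, SE 0.16, adjusted p = 0.455). That is 7.14% of those tested, beside 8.69% of all genes apart and higher.

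No gene of the membrane rotor or the stalks of complex V passed the test. Atp5g1, Atp5g2 and Atp5g3 encode the same mature subunit c of the rotor ring from separate genes, and stood at -0.05, -0.01 and -0.09, with intervals that ran from -0.52 to 0.41, -0.33 to 0.31 and -0.44 to 0.26. Atp5pb, the long subunit of the stator stalk, stood at -0.29 (interval -0.81 to 0.22, adjusted p = 0.55), and Atp5j, another stalk subunit, at 0.11 (-0.20 to 0.43). Atp5d and Atp5e of the central stalk stood at -0.03 and -0.08. The small membrane subunits Atp5j2, Atp5k, Atp5md and Atp5mpl lay between -0.03 and 0.22.

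**Figure D4:**
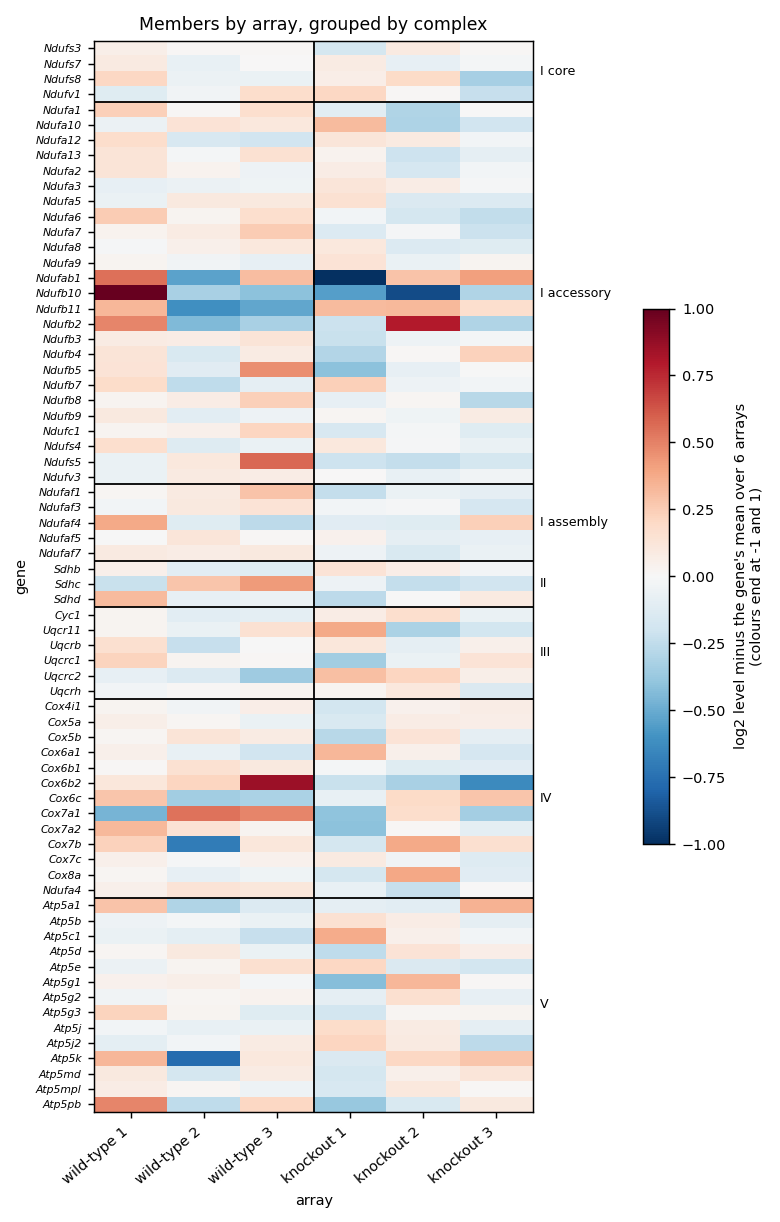
Log2 level of each of the 70 tested genes on each array, minus that gene's mean over the 6 arrays, grouped by complex (red higher, blue lower, colours end at -1 and 1). No complex changes colour as a block between the 3 wild-type and 3 knockout columns, and the deepest colours belong to single arrays of Ndufb10, Ndufab1, Cox6b2 and Ndufb2.

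No array carried the pathway far up or down. The median deviation of the 70 genes from their own means was 0.05, -0.02 and 0.03 in the wild-type and -0.06, -0.01 and -0.05 in the knockout, so the groups overlapped. By complex, the lowest value was -0.17, for complex IV in knockout replicate 1, where complex V also stood at -0.12. That array was one of the 3 rich in granulocyte markers. On the other pair, wild-type replicates 2 and 3, complex IV stood at 0.02 and 0.07. That pair differs from knockout replicate 1 in genotype too, and the part of the markers in these values was not tested. Complex I accessory subunits stood at 0.13, -0.02 and 0.10 on the wild-type arrays and at 0.00, -0.05 and -0.03 on the knockout arrays. The assembly factors were the one group whose wild-type arrays (0.02 to 0.10) all lay above its knockout arrays (-0.09 to -0.05).

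**Figure D5:**
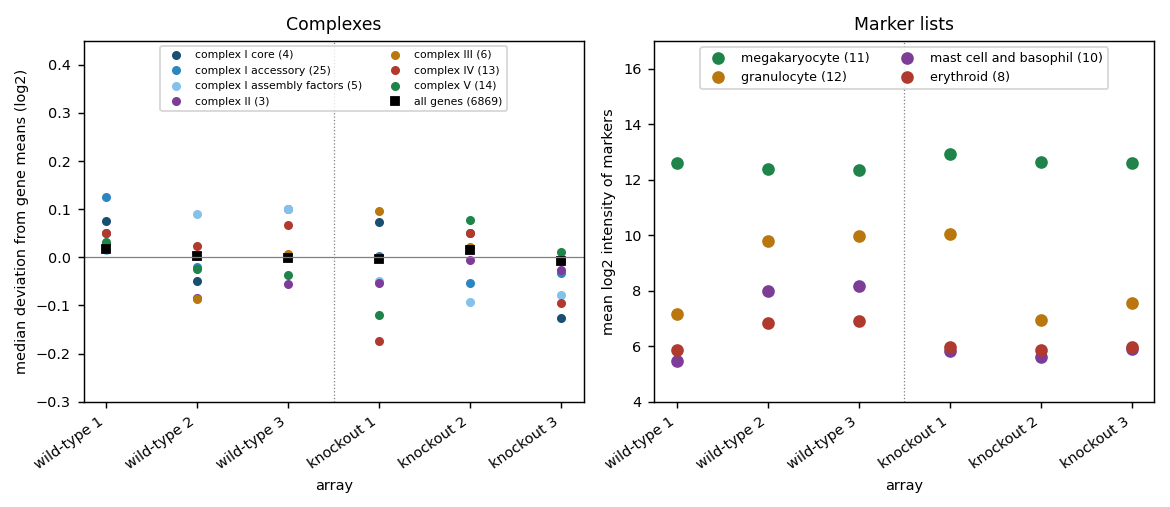
Left, median over the tested genes of each complex of the log2 deviation from the gene's 6-array mean, by array, with the number of genes in the key and all tested genes as black squares. Right, mean log2 intensity of 4 marker lists on the same arrays, with the number of markers on the array in the key. Complex medians stay between -0.17 and 0.13, while the granulocyte mean ranges from 6.95 to 10.06.

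Genes that work beside the respiratory chain gave 0 calls as well. The lists hold genes known for each process. For comparison with the counts that follow, 0.16% of all tested genes were called. At an unadjusted p under 0.05, 6.59% of all tested genes were higher and 6.26% lower, and 51% were lower by mean. Of 28 tested genes for cytochrome c and assembly factors outside the rule, limma called 0 in either direction, and 1 was higher and 1 lower at an unadjusted p under 0.05 (median -0.06). These were Taco1, a translation activator for a mitochondrially encoded complex IV subunit, at 0.35 (adjusted p = 0.351), and Cox16, a complex IV assembly factor, at -0.39 (adjusted p = 0.343). Of 15 tested genes of the tricarboxylic acid cycle and pyruvate dehydrogenase, 0 passed and 1 was higher unadjusted (median 0.01). That was Dlst, a subunit of the 2-oxoglutarate dehydrogenase complex, at 11.92, 11.88 and 11.69 against 12.04, 12.32 and 12.47 (0.45, adjusted p = 0.332). Ogdh, the first subunit of the same complex, stood at 0.38 (adjusted p = 0.376).

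Glycolysis genes had a median of 0.15 over 12 tested, with 8 higher and 4 lower by mean, 0 past the adjusted test and 1 higher unadjusted. Pkm, pyruvate kinase, lay at log2 14.61, 14.48 and 14.10 in the wild-type and 14.78, 14.98 and 14.95 in the knockout (0.51, SE 0.17, adjusted p = 0.332). Hk2, an inducible hexokinase, stood at -0.59 (adjusted p = 0.391). Of 10 tested mitochondrial carriers and outer membrane channels 0 passed, 1 was higher and 1 lower unadjusted, and the median was 0.13. Vdac2, an outer membrane channel, lay at 11.88, 12.31 and 12.01 against 11.63, 11.60 and 11.46 (-0.50, adjusted p = 0.324), and Slc25a10, the dicarboxylate carrier, stood at 0.45 (adjusted p = 0.353). Of 10 tested regulators of mitochondrial biogenesis 0 passed, adjusted or not (median -0.09), with Esrra, a nuclear receptor of that programme, at -0.20 and Gabpb1, the partner of GABPA, at -0.38. No probe carried the symbol of a mitochondrially encoded subunit, so those genes are not analysed here.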

How the data were processed

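The raw intensity of each probe was deposited by the authors on a linear scale, per the file headers together with a bead standard error, a bead number and a detection p-value. The deposited detection p-value compares a probe with the array's negative control beads. The authors' processed values are on a log2-like scale with identical sorted values in every column (median 8.22, lowest value 7.80). Per the submitters' processing notes, BeadStudio 3.2 and lumi were used. What each did, and the transform used, is not stated in the sources used.

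With R 4.3.3 and limma 3.58.1, raw intensities were corrected by normexp with control levels inferred from detection p-values (offset 16), quantile normalized and put on log2 (neqc). The offset shrinks differences of dim probes. Probes with detection p under 0.05 on all 3 arrays of a group were tested, 9403 of 24611. Knockout was compared with wild-type by limma (eBayes, two-sided), p-values were adjusted over all tested probes by Benjamini and Hochberg, and the fit was tested on simulated data. Intervals are limma's and unadjusted. A gene is given by its brightest tested probe, or its brightest probe if none was tested. Each array detected 9801 to 10364 probes, the probes used for members had 14 to 68 beads each, and the 6 arrays limit the precision.

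All 80 member symbols matched the gene table of GRCm38.p6 by Entrez number, unchanged. Cox7a2l and Ndufa4l2 had no probe of that symbol. Named genes were Srf, members past the test, the 3 smallest p in each complex group (complex I split into core, accessory and assembly), fixed isoform sets and the 2 smallest p in each pathway list. Members and lists were chosen with earlier results of these data known. Same-numbered arrays of the groups did not deviate together (correlations -0.27, -0.13 and -0.09). Between arrays of different numbers the correlations ran from -0.16 to 0.22, so these values cannot settle whether the numbers mark pairs. The main fit did not treat numbers as pairs. Alternatives were normexp at offset 50, no background correction, 75th percentile scaling, the authors' values, no filter, a detection p under 0.01, each array left out, wild-type replicates 2 and 3 left out, a replicate block, a mast cell and basophil covariate and the mean over a gene's tested probes. Arrays carried no slide or scan labels.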

Additional observations from a re-analysis of the deposited data

How the results depend on the processing

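No member passed in 13 of the 16 alternatives. The exceptions were Ndufb11 without wild-type replicate 1 (0.84, higher), and Ndufb10, lower in both fits given next. Without wild-type replicates 2 and 3, Ndufb10 stood at -3.05, where the lone wild-type array is assumed to vary like the knockout arrays. With the mast cell and basophil covariate it stood at -2.66 (adjusted p = 0.0274). The covariate was high on wild-type replicates 2 and 3 alone, so the covariate fit also rests largely on wild-type replicate 1. The covariate fit called 14 of all probes (12 lower, 2 higher), and its count of members changed was 1, and of members lower 1. Leaving out 1 array, the count of members changed ran from 0 to 1, of those higher from 0 to 1 and of those lower stayed at 0. Over all probes the test called 15 (13 lower, 2 higher), 9 with no filter (8 lower, 1 higher), 8 lower with the authors' values, 6 with the replicate block (5 lower, 1 higher; no member), and with 1 array left out 7 to 639 (6 to 288 lower, 1 to 351 higher), the most without wild-type replicate 1. The members' median stayed below 0 throughout: it was -0.12 with 75th percentile scaling, where all genes stood at -0.04, and -0.10 without wild-type replicates 2 and 3, and -0.07 to -0.03 with 1 array left out. Percentile scaling also gave medians of -0.18 for assembly factors, -0.047 for complex III, -0.22 for complex IV and -0.10 for complex V. It left 0 members apart and higher, where the main fit had 3 members and 8.69% of all genes. Assembly factors stood at -0.086 with the authors' values and -0.18 by the mean over probes. Complex II, with 3 tested genes, stood at -0.032 with no filter, 0.0092 without wild-type replicates 2 and 3 and -6e-04 with the covariate. With 1 array left out the medians ran from -0.07 to 0.05 (complex I core), -0.14 to -0.06 (accessory), -0.18 to -0.12 (assembly), -0.19 to 0.012 (complex II), -0.03 to 0.06 (III), -0.11 to -0.04 (IV) and -0.03 to 0.05 (V), members lower by mean from 39 to 52, members apart and lower from 13 to 21 (31 without wild-type replicates 2 and 3) and apart and higher from 3 to 14. With fewer arrays in a group more of all genes stood apart too, by the shares given above for several of these fits. The cause of any further move was not tested. Of 30 named members, 18 kept their sign in every alternative, and 20 of 478 values turned sign, none of them with a call in either fit.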

Other observations

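The 2 other large housekeeping groups that share the members' bright signal were set beside them as values. Over all tested genes 0.16% were called, and 6.26% were lower and 6.59% higher at an unadjusted p under 0.05. Of 45 cytosolic ribosomal protein genes 44 were tested, limma called 0, and 3 were lower and 0 higher at an unadjusted p under 0.05. Their median was -0.04, with Rpl36, a protein of the large ribosomal subunit, at 13.16, 13.41 and 13.62 in the wild-type and 13.07, 12.81 and 12.98 in the knockout (-0.44, adjusted p = 0.334), and Rpl29 at -0.38 (adjusted p = 0.351). Of 37 proteasome subunit genes 35 were tested, limma called 0, and 2 were higher and 0 lower unadjusted. Their median was 0.09, with Psmd2, a subunit of the regulatory particle, at 7.94, 7.07 and 7.39 in the wild-type and 8.53, 8.11 and 8.76 in the knockout (1.00, adjusted p = 0.289) and Psmd9, an assembly chaperone of the proteasome, at 0.54 (adjusted p = 0.352). On wild-type replicate 1, Ndufb10 was the 1 gene at least 1 above every other array, and 4 genes stood at least 1 below every other array. For the other 5 arrays, the number of the 6869 tested genes at least 1 above every other array was 8 in knockout replicate 1, 2 in wild-type replicate 3 and 0 in the remaining 3. At least 1 below were 2 and 8 genes on wild-type replicates 2 and 3, and 10, 4 and 1 on knockout replicates 1 to 3.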
